A study of Homo sapiens with 8 samples.

Results

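A run of 7 neighbouring protein-coding genes of chromosome 8, STMN4, TRIM35, PTK2B, CHRNA2, EPHX2, CLU and SCARA3, is described here for the histone variant macroH2A1. They are 7 of the 20033 protein-coding genes of the annotation and span 498.8 kb, from 27235308 to 27734141 (hg38). The stretch was selected on measured values. Of the 4474 regions in the authors' deposited table of differential regions, those over PTK2B and over CLU have the second and the third smallest p-values. The genes around and between them were added as neighbours, so the changes below are descriptions and carry no test.

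The cells were HepG2, a single human hepatoblastoma line. They were treated with siControl, a non-targeting siRNA, or with siANP32B, which targets the histone chaperone ANP32B, and were collected 3 days later. Anti-macroH2A1 CUT&RUN, in which an antibody tethers a nuclease that cuts out the chromatin it binds, was made in 2 libraries per siRNA. A further 4 IgG libraries were not analysed here. The labels number the replicates without saying whether they were separate cultures, so a spread between them may be technical. The chromatin maps carry no expression values, so the liver origin of the line was not checked against markers.

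MacroH2A1 replaces H2A in a part of the nucleosomes and carries a large globular macro domain. It is known for broad stretches of weakly transcribed chromatin, although it can also lie over genes that respond to signals. ANP32B belongs to a family of acidic proteins that bind histones and keep them from unspecific contacts with DNA.

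Each library has a deposited list of domains, stretches that the authors' caller found enriched, with ends on a 1 kb grid. The covered share of a gene is the percentage of its bases inside a domain. It records whether enrichment was called, not how strong it was. The depth of the libraries is unknown. The authors' deposited table also gives each tested region a log2 fold, taken from a representative window, and a false discovery rate. A region is called lower here at a false discovery rate of at most 0.05 with the direction "down". Which group is the numerator is not written there. Regions outside this locus with a positive fold in the authors' deposited table had at least 50% of their length in a domain in 90.1% and 85.0% of cases in siControl and in 96.5% and 97.1% in siANP32B libraries, so a positive fold was taken to mean more macroH2A1 after siANP32B. For negative folds of the authors' deposited table the shares were 95.5% and 93.5% against 91.4% and 92.7%.

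MacroH2A1 lay over most of this stretch in every library. Domains covered 392.7 and 362.0 kb of the 498.8 kb in siControl libraries against 341.7 and 288.0 kb after siANP32B. That is 78.7% and 72.6% against 68.5% and 57.7%, with both siANP32B libraries below both siControl libraries. The rest of chromosome 8 was covered by 15.0% and 13.7% in siControl and by 14.8% and 15.3% in siANP32B libraries. For 5 of the 7 genes, at least 50% of the body was in domains of both siControl libraries, against 13.7% of all protein-coding genes. In both siANP32B libraries this held for 4 of the 7, against 17.2% of all protein-coding genes. The genes fall into a covered set (STMN4, PTK2B, CHRNA2, CLU and SCARA3) and a pair with little coverage (TRIM35 and EPHX2).

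**Figure D1:**
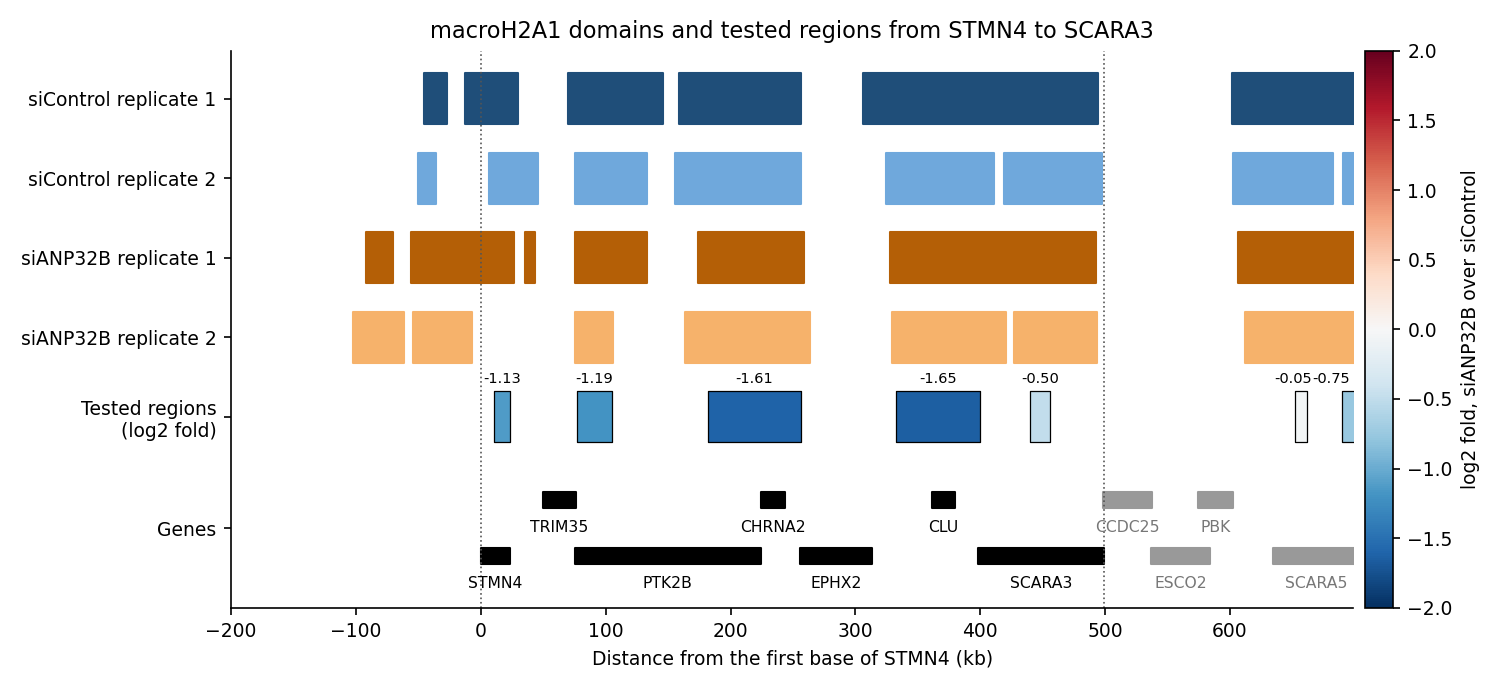
Domains of the 4 libraries (bars), tested regions of the authors' deposited table (coloured and labelled by log2 fold) and protein-coding genes (the 7 genes in black, others in grey), by distance in kb from the first base of STMN4; dotted lines mark the first and the last base of the 7 genes, and bars are cut off at 200 kb beyond them. The 5 regions between the lines have log2 folds from -1.65 to -0.50, and TRIM35 and the body of EPHX2 lie between domains.

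All 5 tested regions that touch the stretch were lower after siANP32B in the authors' deposited table, where 58.4% of all regions were lower and 3.82% higher. They were 13, 28, 75, 67 and 16 kb long, from the STMN4 side to the SCARA3 side, and had log2 folds of -1.13, -1.19, -1.61, -1.65 and -0.50 in the authors' deposited table. All 153 windows tested in them were counted as down in the authors' deposited table, against 52.5% of the 60658 windows of all regions. A fold just below 0 was not enough for that count. A region of 1 window in the 1 Mb after SCARA3, at -0.05 in the authors' deposited table, had 0 windows down. The 52.5% is therefore not the share of windows with a negative fold. Of the 153, 66 and 58 lay in the 75 and 67 kb regions (PTK2B-CHRNA2 and CLU), on which the stretch was selected. So these counts mostly restate that choice. By the authors' deposited table the median log2 fold of the 5 regions was -1.19, while it was -0.54 over all regions and -0.52 over the 206 other regions of chromosome 8. Measured from the median of all regions, the first 4 folds were -0.59, -0.65, -1.07 and -1.11, whereas the SCARA3 fold became +0.04. The fold of the SCARA3 region was thus close to that of a typical tested region. Of the 7 genes, 6 overlapped a tested region and all 6 overlapped a lower one, against 60.7% lower and 5.83% higher among all protein-coding genes with a tested region. However, PTK2B, CHRNA2, EPHX2, CLU and SCARA3 each overlap the PTK2B-CHRNA2 or the CLU region, on which the stretch was selected. For them the lower call was given by that choice, which leaves STMN4. TRIM35 overlapped none. For EPHX2 the overlap is 0.858 kb, or 1.49% of the gene.

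**Figure D2:**
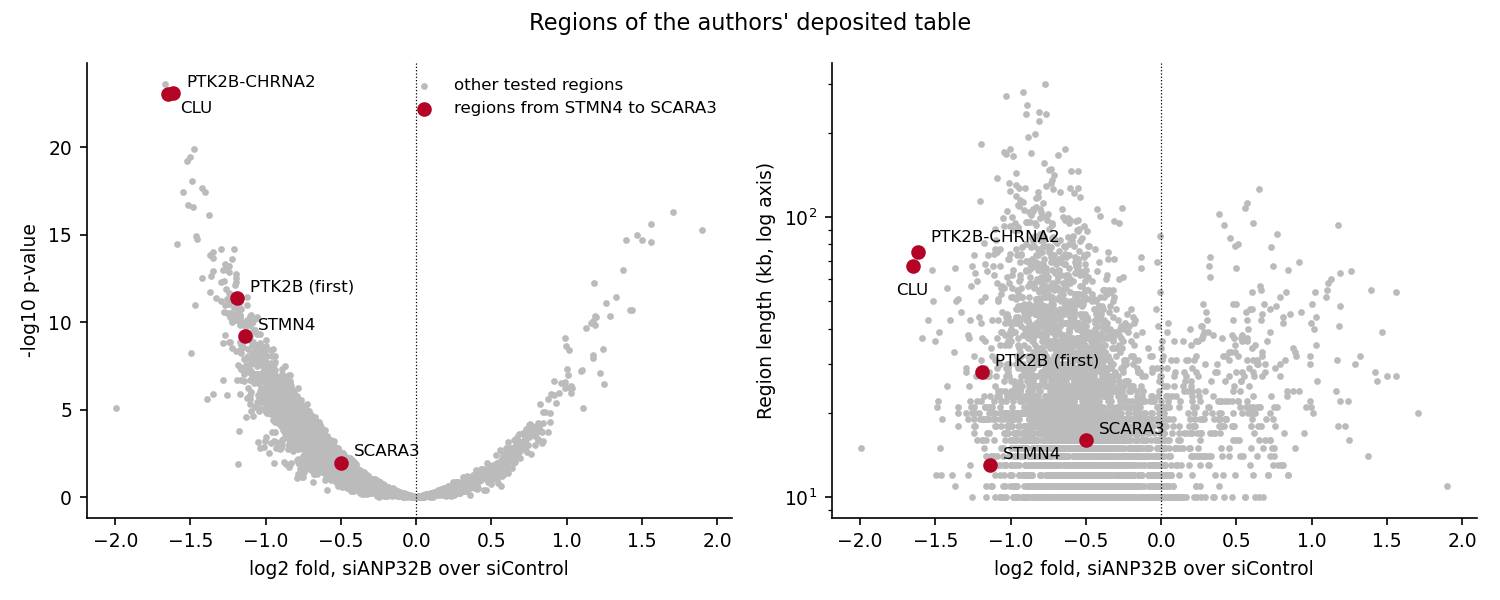
Each point is 1 region of the authors' deposited table, with its log2 fold (siANP32B over siControl) on the x axis and, on the y axis, -log10 of its p-value (left) or its length in kb on a log axis (right); red points are the 5 regions from STMN4 to SCARA3. The PTK2B-CHRNA2 and CLU regions, on which the stretch was selected, lie at the low edge of the folds and are long, while the SCARA3 region lies among the bulk.

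PTK2B encodes a calcium-responsive tyrosine kinase of the focal adhesion kinase family and takes up 148.9 kb (27310506 to 27459391). It was the one gene of the 7 whose covered share did not overlap between the groups. Domains held 91.3% and 84.2% of PTK2B in siControl and 72.1% and 60.7% in siANP32B libraries, a mean of 87.7% ± 4.98 against 66.4% ± 8.07 (SD, n = 2 each). The difference of -21.3 percentage points stayed between -15.6 and -27.0 when each library was left out in turn. Among all protein-coding genes, 2.93% had both siANP32B libraries below both siControl libraries and 8.99% had both above.

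The PTK2B body holds parts of 2 tested regions, and the shrinking coverage lay outside both. The first region (27312001 to 27340000) is wholly inside PTK2B, for which the authors' deposited table gives a log2 fold of -1.19 and a false discovery rate of 3.59e-10. The other (27417001 to 27492000) reaches from PTK2B across CHRNA2 to the edge of EPHX2, for which the authors' deposited table gives -1.61 and 1.40e-20. Together they hold 70.4 kb of PTK2B, all of it in domains in each of the 4 libraries. In the remaining 78.5 kb of the gene, domains covered 65.5 and 55.0 kb in siControl libraries against 37.0 and 20.0 kb after siANP32B. Most of that sequence is the 77 kb gap between the regions, from 27340001 to 27417000, which was 83.1% and 70.1% covered in siControl libraries against 46.8% and 24.7% covered after siANP32B. So the authors' deposited table records lower signal where PTK2B kept its domains. The domains ended earlier in gene sequence that the table does not list. Outside this locus, 91.4% and 92.7% of regions with a negative fold also lay mostly in domains of the siANP32B libraries. Kept domains inside tested regions were therefore usual. A loss of domains could appear mainly outside the regions, so this split does not set PTK2B apart.

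The same pattern of edges can be read from the domains themselves. The domain at the low-coordinate end of PTK2B ended at 27381000 and 27368000 in siControl and at 27368000 and 27341000 in siANP32B libraries, so the groups touched at 1 value. The next domain began at 27394001 and 27391001 in siControl and at 27409001 and 27399001 in siANP32B libraries, which placed both siANP32B starts inside the siControl domains. At its other end it ran to 27492000 in both siControl libraries and to 27494000 and 27499000 in siANP32B libraries, 2 and 7 kb further into EPHX2.

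**Figure D3:**
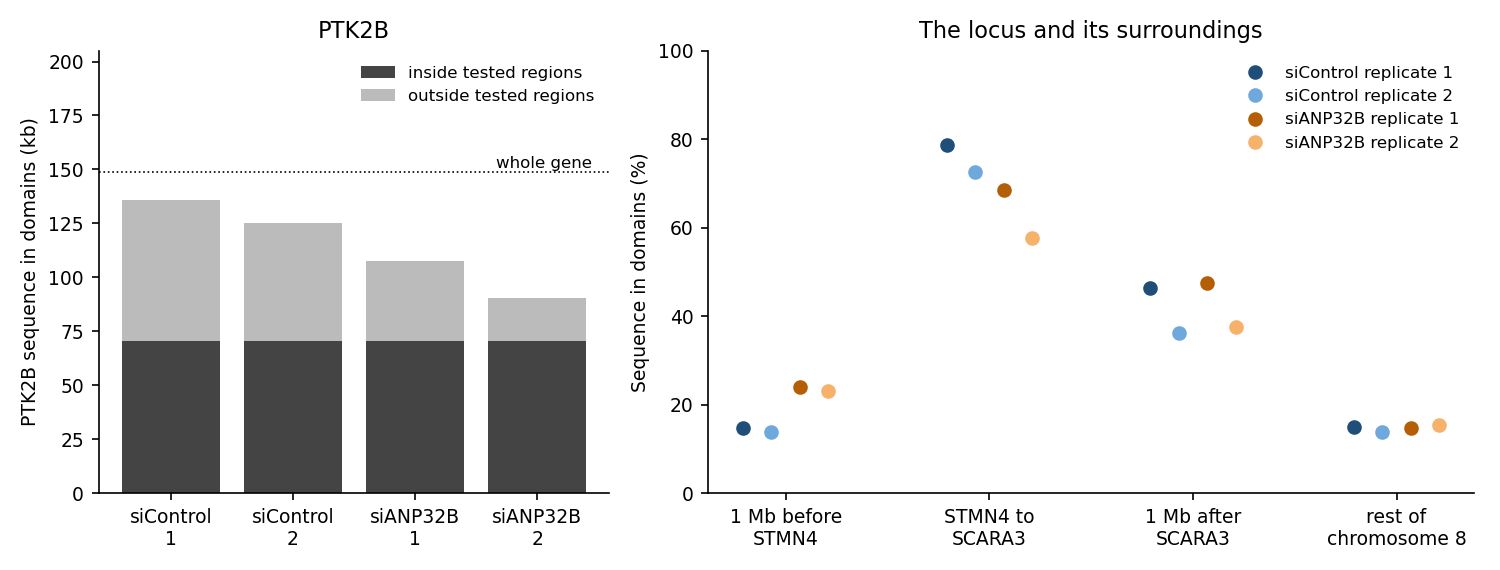
Left, kb of PTK2B inside domains in each library (bars from 0), split into sequence inside and outside the tested regions, with the gene's length as a dotted line; right, percentage of sequence in domains in each library (points) for the stretch, the 1 Mb on each side and the rest of chromosome 8. The part of PTK2B inside tested regions is 70.4 kb in all 4 libraries, and the stretch falls while the 1 Mb before it rises.

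CHRNA2 encodes the alpha 2 subunit of neuronal nicotinic acetylcholine receptors, cation channels opened by acetylcholine. It lies 364 bp beyond PTK2B (27459756 to 27479261) and sits wholly inside the second PTK2B region and inside 1 domain in each library. CHRNA2 was 100% covered in all 4 libraries, so the lower fold of its region came without any loss of the called domain over the gene. By the shares given above, kept domains were usual for regions with a negative fold. That domain was 98 and 101 kb long in siControl and 85 and 100 kb in siANP32B libraries, against median domain lengths of 38 and 39 kb and of 47 and 48 kb in the respective lists. By the authors' own score it ranked 28 of 8623 and 29 of 8116 in the siControl lists and 27 of 7530 and 67 of 7404 in the siANP32B lists. It was thus among the best-scored 1% of domains in each list, and ranks from lists of different length say nothing of a change.

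CLU encodes clusterin, a secreted chaperone that is abundant in plasma and binds misfolded proteins and lipids. It occupies 17.8 kb (27596917 to 27614700) of a 67 kb tested region (27568001 to 27635000), to which the authors' deposited table assigns a log2 fold of -1.65 and a false discovery rate of 1.40e-20. CLU was 100% covered in all 4 libraries. Of the region, CLU makes up 26.5% and the pseudogene GULOP, a remnant of the enzyme for the last step of vitamin C synthesis, 17.1%. GULOP, the microRNA gene MIR6843 and the lncRNA LOC124901919 lie wholly in the region and were also 100% covered in each library. At least as long as this one are 225 regions of the authors' deposited table, 82.7% of them lower, with a median log2 fold of -0.76. The CLU region has the lowest fold of these 225 in the authors' deposited table and the PTK2B-CHRNA2 region the second lowest. Over all 4474 regions of the authors' deposited table they rank 3 and 4 by fold, and 258 regions have a fold of -1 or below. Both regions were selected for their small p-values in the same comparison, so extreme folds were largely given by that choice.

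SCARA3, a class A scavenger receptor-like protein known from the response to oxidative stress, follows CLU after 18.8 kb and spans 100.7 kb (27633463 to 27734141). It was covered by 95.9% and 90.9% in siControl and by 93.9% and 88.9% in siANP32B libraries, and the groups overlapped. The means were 93.4% ± 3.51 and 91.4% ± 3.51 (SD, n = 2 each), a difference within the spread between libraries. The lower end of SCARA3 shares 1.54 kb with the CLU region. Its own region (27675001 to 27691000) covers 15.9% of the gene and had by the authors' deposited table a log2 fold of -0.50 with a false discovery rate of 0.0200, which passes 0.05 but not 0.01. The CLU and SCARA3 sequence was 1 domain of 189 and 165 kb in replicate 1 of siControl and siANP32B, and it was split in replicate 2, into 86 and 79 kb in siControl and 91 and 67 kb in siANP32B. The split therefore went with the replicate number and not with the siRNA. Between the CLU and SCARA3 regions, 40 kb carried no tested region although it was 100% and 80% covered in siControl libraries against 100% and 85% after siANP32B.

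STMN4 encodes a stathmin, a protein that binds tubulin and destabilises microtubules, and is known mainly from neurons. It was covered by 100% and 71.0% in siControl and by 100% and 0% in siANP32B libraries, so the 2 siANP32B libraries stood at opposite ends. The mean fell from 85.5% to 50%, with SDs of 20.5 and 70.7 (n = 2 each), and without siANP32B replicate 2 the difference of -35.5 points turned to +14.5. The region over STMN4 (27246001 to 27259000) had, by the authors' deposited table, a log2 fold of -1.13 with a false discovery rate of 2.59e-08. It was inside a domain in 3 of the 4 libraries and outside in siANP32B replicate 2. In siANP32B replicate 2 the nearest domain ended before STMN4, whereas in siANP32B replicate 1 a domain of 83 kb ran across the gene with a score that ranked 4208 of 7530.

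TRIM35, an E3 ubiquitin ligase of the tripartite motif family, overlaps PTK2B by 767 bp and was barely covered otherwise. Its covered share was 23.8% in siControl replicate 1 and 1.03% in each of the other 3 libraries. Only siControl replicate 1 stood apart, and without it the difference was 0. A stretch of 24 kb within and before TRIM35 (27281001 to 27305000) was in no domain of any library. EPHX2 encodes soluble epoxide hydrolase, which converts epoxides of fatty acids to diols and is well expressed in liver. It was covered by 14.8% and 1.49% in siControl and by 4.97% and 13.7% in siANP32B libraries, with overlapping groups. The means of 8.13% ± 9.38 and 9.32% ± 6.15 (SD, n = 2 each) did not differ beyond their spread, and 42 kb of EPHX2 (27499001 to 27541000) were in no domain. EPHX2 thus lies mostly in a gap between called domains, with the regions of the lowest folds of the stretch on either side. The signal within that gap was not measured here.

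**Figure D4:**
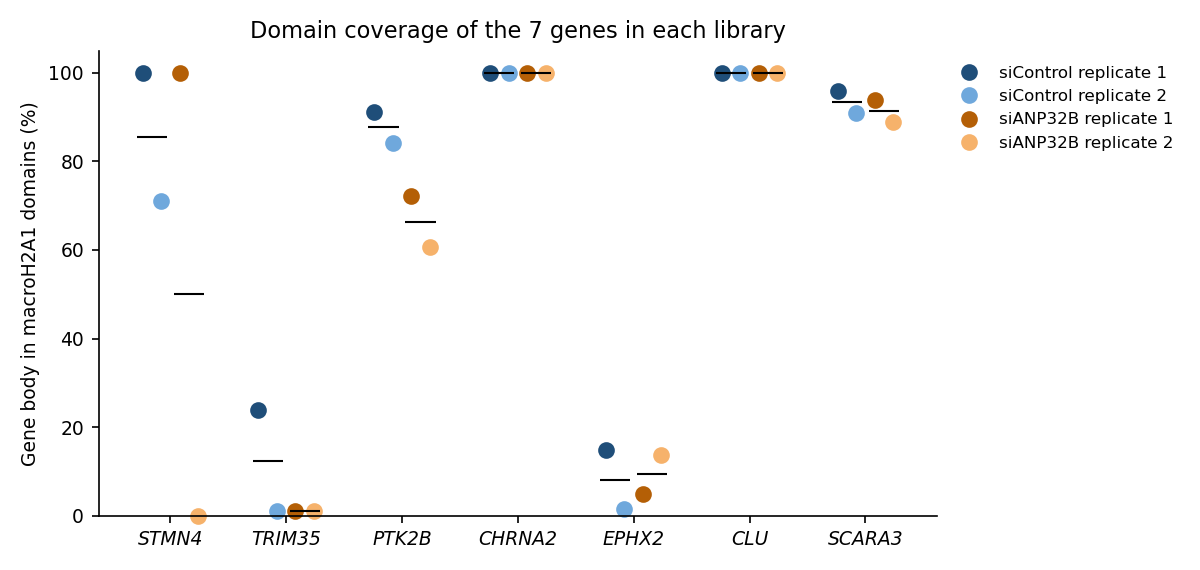
Percentage of each gene body inside macroH2A1 domains, in genomic order, with 1 point per library and a black line at the mean of each group of 2. CHRNA2 and CLU are at 100% in all libraries, PTK2B separates the groups, and STMN4 runs from 100% to 0% among the siANP32B libraries.

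Seen in 1 kb steps, 262 of the 500 kb were in a domain of all 4 libraries, 78 kb in none and 146 kb in mixed combinations of libraries. Sequence in both siControl and no siANP32B library came to 12 kb, and the opposite set to 2 kb. Of the 262 kb, 71.0% lay inside a tested region and 29.0% did not. Inside the 199 kb of tested regions, coverage was complete in 3 libraries and 186 kb in siANP32B replicate 2, the missing part being the STMN4 region. Outside them it was 193.7 and 163.0 kb in siControl libraries against 142.7 and 102.0 kb after siANP32B, a mean of 178.3 ± 21.7 against 122.3 ± 28.8 kb (SD, n = 2 each). Over the whole stretch coverage fell by 62.5 kb on average, from 377.3 ± 21.7 to 314.8 ± 38.0 kb (SD, n = 2 each). Without siANP32B replicate 2 it fell by 35.7 kb.

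Coverage summed over the 1 Mb on each side of the stretch showed no such loss, although single genes there differed. In the 1 Mb before STMN4, coverage was 14.8% and 13.9% in siControl libraries against 23.9% and 23.1% after siANP32B, higher in both. In the 1 Mb after SCARA3 it was 46.4% and 36.2% against 47.6% and 37.6%. With 200 kb added on each side of the stretch, the difference shrank from -62.5 to -4.50 kb. The 1 Mb before STMN4 holds no tested region, and the nearest one lies 2052 kb away. The 1 Mb after SCARA3 holds 4 regions in the authors' deposited table, of which 2 were lower (-0.75 and -0.86) and 2 were not called (-0.05 and +0.02). CCDC25, a coiled-coil protein gene whose body begins within the end of SCARA3, was 0% covered in all 4 libraries. ESCO2, a cohesin acetyltransferase gene named here after its values were seen, was also at 0% throughout. LOC124901868 and DPYSL2, both in the 1 Mb before STMN4, were likewise named after their values were seen. LOC124901868 was 100% covered in both siControl libraries and 0% covered in both siANP32B libraries. It is only 3.23 kb long, so a small shift of a domain edge can change its share greatly. DPYSL2 went the other way, but clearly so only in siANP32B replicate 1, at 57.6%. In siANP32B replicate 2 it was 27.1% covered, barely above the higher siControl value of 26.4% (replicate 1).

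The families and partners of the 7 genes were counted in the same way, in 7 lists with 130 other genes. In both siControl libraries 21 of the 130 (16.2%) were at least 50% covered, against 13.7% of all protein-coding genes. In both siANP32B libraries it was 28 (21.5%), against 17.2%. A tested region overlapped 12 of them, of which, by the authors' deposited table, 9 overlapped a lower region and none a higher one. That share of lower genes is to be read against the 60.7% given above for all genes with a tested region.

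Among 20 focal adhesion kinase partners of PTK2B, 1 was covered in both siControl libraries and 1 had a lower region. Both were NEDD9, an adhesion scaffold that kinases of this family phosphorylate, with a log2 fold of -1.37 in the authors' deposited table. NEDD9 was 76.4% and 93.1% covered in the siControl libraries and reached 96.5% in siANP32B replicate 1, with siANP32B replicate 2 between the siControl values. Its domain coverage overlapped between the groups, unlike that of PTK2B. PITPNM1, BCAR1 and TGFB1I1 overlapped no tested region. BCAR1, another adhesion scaffold, ranged from 0% to 84.9% covered within the siANP32B libraries.

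Of 15 other nicotinic receptor subunits, 5 (33.3%) were covered in both siControl libraries, against 13.7% of all protein-coding genes. CHRNA4 and CHRNA6 were 100% covered in all 4 libraries like CHRNA2, and CHRNA9 in all but siANP32B replicate 2 (69.8%). CHRNB3, also 100% covered throughout, was the one with a lower region, at a log2 fold of -0.64 in the authors' deposited table. CHRNB3 (ending at 42737407) and CHRNA6 (starting at 42752620) lie close together on chromosome 8, so they are not separate examples. The CHRNB3 fold lies near the median of all regions and that of the PTK2B-CHRNA2 region far below it, although both receptor genes keep full coverage. The stretch was selected partly on the PTK2B-CHRNA2 region, so its low fold was largely given by that choice. PTK2B makes up 56.5% of that region, and whether the representative window of its fold lies in CHRNA2 is not known. The contrast therefore does not set CHRNA2 apart from CHRNB3.

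Of the 4 other class A scavenger receptor genes, 2 (50%) were covered in both siControl libraries, against 13.7% of all protein-coding genes. Both had a lower region, against 60.7% of all protein-coding genes with a tested region. COLEC12, a collectin-type scavenger receptor, had a log2 fold of -1.03 in the authors' deposited table. SCARA5, a ferritin receptor gene that lies within the 1 Mb after SCARA3, had -0.75 there. SCARA5 holds a second tested region that was not called, at -0.05 in the authors' deposited table. Both SCARA5 regions are among those counted above for the 1 Mb after SCARA3, so they add no separate evidence. SCARA5 was 95.1% and 82.9% covered in siControl libraries against 100% and 95.1% after siANP32B. MSR1 had no domain, and MARCO was 0% and 45.4% covered in siControl but 100% covered after siANP32B. Of 66 other TRIM genes, 28 had no domain in any library, as had 46.9% of all protein-coding genes. In both siControl libraries 11 of the 66 (16.7%) were covered, close to the 13.7% of all protein-coding genes. A tested region overlapped 7 of the TRIM genes, 5 with a lower region and none with a higher one, at log2 folds from -1.08 to +0.37 in the authors' deposited table. The lowest fold was at TRIM67 (-1.08 in the authors' deposited table), followed by TRIM42 (-0.88), TRIM56 (-0.56) and TRIM54 (-0.50).

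The 8 epoxide hydrolases and fatty acid epoxygenases included none covered in both siControl libraries and 1 with a tested region, CYP2C18, which was not called (-0.15 in the authors' deposited table). CYP2J2, an epoxygenase of arachidonic acid, and EPHX4 overlapped no tested region. None of the 14 partners and receptors of clusterin overlapped a tested region. Of that list, APOA1, C8B, C8A and LRP2 had the highest coverage in siControl, and C8B and C8A encode subunits of the terminal complement complex that clusterin binds. C8B was 100% covered in both siControl and 59.2% and 83.7% in siANP32B libraries, lower in both. C8A was 63.7% and 47.7% covered in siControl libraries against 74.8% and 81.1% after siANP32B, higher in both. LRP2, an endocytic receptor that takes up clusterin, was also higher in both siANP32B libraries, at 57.1% and 45.7% against 44.8% and 29.1%. APOA1 was 100% covered in all but siANP32B replicate 2, where it was at 0%. None of the 3 other stathmins had a tested region. STMN1 was higher in both siANP32B libraries, at 52.1% and 60.4% against 47.1% and 8.28% in siControl. Of all protein-coding genes, 8.99% had both siANP32B libraries above both siControl libraries and 2.93% had both below. STMN2 ranged from 0% to 53.0% within the siANP32B libraries, and STMN3 was 0% covered in 3 libraries and 100% covered in siANP32B replicate 1.

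Genes elsewhere were compared with PTK2B and CLU by their covered share in the 4 libraries (within 10 percentage points in each) and then by the distance in log2 fold. For CLU, 1503 genes matched in coverage and 517 of them met the overlap rule with a tested region. The nearest in fold were SRRM3, a splicing factor gene (-1.55 in the authors' deposited table), and the neighbours RAB7B and SLC26A9, which share 1 region (-1.52). For PTK2B, 2 genes matched in coverage, MMP28 and CPT1C, and neither overlapped a tested region. MMP28, a matrix metalloprotease gene, was 100% and 80.3% covered in siControl libraries against 72.7% and 65.1% after siANP32B. CPT1C, a carnitine palmitoyltransferase gene of neurons, was 91.0% and 89.9% covered in siControl libraries against 73.7% and 50.9% after siANP32B.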

How the data were processed

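HepG2 cells for the CUT&RUN libraries were transfected with siControl (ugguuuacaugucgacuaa) or siANP32B (ugacuaccgagagagugucuu), both written 5′ to 3′ as the labels give them. The submitters' processing notes name build hg38 and the tools edgeR, SICER, Bowtie2, Trim Galore, deepTools and SAMtools. For versions, library scaling and the caller's control, "not given in the sources used here" applies.

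For each anti-macroH2A1 library the authors deposited 1 domain list, with a score per domain that is the caller's own. Per the file headers, their deposited table of regions has a p-value, a false discovery rate, a log fold read as log2 by edgeR's convention, and, as other deposited whole numbers, windows tested, up and down. Adjusting the p-values by Benjamini-Hochberg over all 4474 regions gave back the false discovery rates (largest difference 1.11e-15). The table has no values per library, so no test was made here. Columns with values of other samples numbered 0.

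Domains were read as whole 1 kb bins. Gene spans came from RefSeq (GRCh38.p14, without strand or exons). Coverage was computed with Python 3.11.15, numpy 2.4.6 and pandas 2.3.3 and checked on simulated data. The 7 genes and the lists were chosen with earlier results of these data known. Named genes were the 7, other protein-coding genes touching the span, up to 4 per list by smallest p-value and then by coverage in siControl, and the 3 most like PTK2B and CLU; others are said to be chosen afterwards. A gene that this rule names is not reported here. Alternatives were stricter thresholds, score filters, wider spans, centred folds and leaving out each library.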

Additional observations from a re-analysis of the deposited data

How the results depend on the processing

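The coverage loss of the stretch (-62.5 kb) was -75.8 kb with domains at or above the median score of their list. It was -62.5 kb with equal numbers of best-scored domains and -4.50 kb with the span widened by 200 kb on each side. The equal-number setting kept 7404 domains per list, and no domain touching the stretch ranked worse than 4208. That setting could therefore not change the value. Leaving out each library in turn gave -35.7 to -89.3 kb. Taken within replicate number (replicate block), the differences were -51 and -74 kb with the same mean of -62.5 kb. For single genes, pairing was added after seeing the data and left each mean difference as it was. The paired differences were -19.1 and -23.5 points for PTK2B and -1.99 points in both replicates for SCARA3, while those of EPHX2 differed in sign (-9.79 and 12.2). Whether the numbers mark shared cultures is not stated. The count of 5 lower regions was 4 at false discovery rates of 0.01 and 0.001, 5 with at least 50% of the region inside the span and 6 with the wider span. Centring on the median of all regions turned 1 fold, that of SCARA3 (-0.50 to 0.0425). Of 49 alternatives for the covered shares of the 7 genes, 6 turned the sign. Many of the 49 could not turn it: CHRNA2 and CLU had a difference of 0 in every setting, and pairing cannot change a mean. TRIM35 went from -11.4 points to 0 without siControl replicate 1, which was not counted as a turn. Leaving out each library gave -85.5 to 14.5 points for STMN4 (positive without siANP32B replicate 2), -4.47 to 0.497 for SCARA3 (positive without siControl replicate 1 or siANP32B replicate 2) and -5.44 to 7.83 for EPHX2 (negative without siControl replicate 2, and -3.15 without siANP32B replicate 2), and adding 10 kb on each side gave -5.57 for EPHX2. The listed family genes covered in both siControl libraries fell from 21 to 12 with a minimum of 90%. Those with a lower region numbered 7 instead of 9 at 0.01. The table of regions gives no library values, so leaving out a library was not possible there, and the unknown depth limits what the domain calls can show.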
